A study of Rattus norvegicus with 102 samples.

Results

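The kainate receptor genes were 7 of the 26284 genes listed in the Illumina and WT tables and of the 26341 listed for the Ion Proton. They were found by an exact match of gene symbol and comprise Grik1, Grik2 and Grik3, Grik4 and Grik5, and Neto1 and Neto2. All 7 were listed in all 3 tables and all 7 passed the filter on low values. The tissue was CA1, CA3 and the dentate gyrus (DG), dissected from the hippocampus of male Fisher 344 rats. Poly-A RNA of every piece was read on both an Illumina and an Ion Proton machine, and there was a further table named WT whose library type is not given in the sources used here. Group Y held 10 young rats of 5 to 6 months. OG and OB held 12 rats each of 17 to 22 months, unimpaired (OG) or impaired (OB) in a water maze. No rat carried a transgene or a drug treatment in the labels. Each rat gave 1 library per subfield, so a table held 34 libraries per subfield, and each piece was bulk tissue, in which fewer cells of a type and less RNA per cell cannot be told apart. All values below are normalised read counts of the Illumina table unless another table is named, and the question was whether these genes differ between subfields and between classes of rats.

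Kainate receptors are glutamate-gated cation channels built of subunit tetramers. Grik1, Grik2 and Grik3 encode the primary subunits GluK1, GluK2 and GluK3, which can form channels by themselves, whereas Grik4 and Grik5 encode the high-affinity subunits GluK4 and GluK5, which need a primary partner. Neto1 and Neto2 encode auxiliary membrane proteins that change the gating of the channel. In the hippocampus these receptors are best known at the synapse of the mossy fibres, the axons of dentate granule cells, on CA3 pyramidal cells, and GluK1 is also known from interneurons. In the deposited annotation Grik1 lies on chromosome 11, Grik2 on 20, Grik3 on 5, Grik4 on 8, Grik5 on 1, Neto1 on 18 and Neto2 on 19, as protein-coding genes, without start or end positions.

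Promoter sequences are shown for Grik1 and Neto2, which stood higher in CA1 than in DG, and for Grik2 and Grik4, which stood lower, so that genes moving in opposite directions can be read side by side. They were taken from RefSeq on build GRCr8, another build than that of the tables, and run from 250 bases before to 50 bases after the annotated start, 5′ to 3′ on the strand of the gene. The 7 genes all had an entry. Grik1 lies at chr11:41056454-41056753 on the minus strand, Neto2 at chr19:37517305-37517604 on the plus strand, Grik2 at chr20:54415234-54415533 on the minus strand and Grik4 at chr8:52102014-52102313 on the minus strand. Capitals mark CANNTG (the E-box), GGGCGG (the GC box) and TGACGT on either strand, and TATAAA was searched too.
Grik1: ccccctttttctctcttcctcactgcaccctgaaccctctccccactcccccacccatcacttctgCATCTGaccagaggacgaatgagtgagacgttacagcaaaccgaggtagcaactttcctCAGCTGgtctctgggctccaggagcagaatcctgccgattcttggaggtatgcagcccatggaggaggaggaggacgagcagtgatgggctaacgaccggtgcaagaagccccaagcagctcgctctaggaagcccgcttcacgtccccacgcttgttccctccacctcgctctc
Neto2: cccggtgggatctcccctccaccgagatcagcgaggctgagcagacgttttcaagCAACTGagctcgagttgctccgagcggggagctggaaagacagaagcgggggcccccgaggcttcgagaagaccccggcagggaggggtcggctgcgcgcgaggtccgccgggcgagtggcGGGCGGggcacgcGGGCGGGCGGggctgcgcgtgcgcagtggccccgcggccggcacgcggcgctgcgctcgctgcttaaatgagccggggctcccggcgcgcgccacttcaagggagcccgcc
Grik2: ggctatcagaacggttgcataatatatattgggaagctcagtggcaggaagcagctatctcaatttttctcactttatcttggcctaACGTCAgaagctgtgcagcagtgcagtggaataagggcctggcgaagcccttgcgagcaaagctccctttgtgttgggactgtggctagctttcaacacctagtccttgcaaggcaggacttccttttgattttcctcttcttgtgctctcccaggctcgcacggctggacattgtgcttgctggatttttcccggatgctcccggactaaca
Grik4: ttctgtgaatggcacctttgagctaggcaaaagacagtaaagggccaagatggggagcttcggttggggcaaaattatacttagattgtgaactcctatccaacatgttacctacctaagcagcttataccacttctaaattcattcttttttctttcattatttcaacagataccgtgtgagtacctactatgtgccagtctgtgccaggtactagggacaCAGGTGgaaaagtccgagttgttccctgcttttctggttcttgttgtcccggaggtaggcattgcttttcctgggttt
Grik1 held 2 matches to CANNTG, Neto2 held 1 to CANNTG and 3 to GGGCGG of which a pair overlap, Grik2 held 1 to TGACGT and Grik4 held 1 to CANNTG. Among 33469 promoters of the same length, 72.1% held CANNTG, 33.1% GGGCGG, 7.94% TGACGT and 14.2% TATAAA, and no TATAAA was found in these 7. G and C made up 58.7% of the bases for Grik1, 74.0% for Neto2, 50.3% for Grik2 and 44.0% for Grik4, beside a median of 51.7% over all promoters. The matches describe the letters only.

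Illumina libraries held 3.247 to 42.75 M reads (median 10.75), Ion Proton libraries 4.47 to 21.43 M and WT libraries 3.539 to 20.63 M. The fewest reads on any of the 7 genes in an Illumina library were 48, for Grik1 and for Neto2 in DG. By CA1, CA3 and dentate granule markers, 10 libraries lay nearest to another subfield than their label in both poly-A tables. These were 5 CA3, 4 DG and 1 CA1 libraries of 7 rats, and the comparisons named with them below are also given without them. The labels number the rats, and the numbers form a series below 9000 (18 rats, with 5 Y, 6 OG and 7 OB) and a series from 9000 up (16 rats, with 5 Y, 6 OG and 5 OB). The labels do not say what the number stands for. The young and aged rats in each series are as many as the submitters' design text gives for each of its testing sites, but no label ties a rat to a site.

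Between subfields, 4 of the 7 genes differed between CA1 and CA3, 5 between CA1 and DG, and 3 between CA3 and DG. A gene was called when limma gave a Benjamini-Hochberg adjusted p under 0.05 in the Illumina and in the Ion Proton table, in 1 direction. Of all genes tested, 14.4% were called between CA1 and CA3, 26.9% between CA1 and DG, and 28.5% between CA3 and DG. Grik4 and Neto1 were lower in CA1 than in either other subfield, Grik2 was higher in DG, Grik1 was lower in DG, Neto2 fell in order from CA1 through CA3 to DG, and Grik3 was higher in CA1 than in CA3. The 4 differences called between CA1 and CA3 are those over all rats, and each of them differed between the number series, as given further down. Without the 10 libraries whose markers lay nearest to another subfield, the counts were again 4, 5 and 3. CA1 minus CA3 was then -1.10 for Grik4, -1.34 for Neto1, 0.45 for Grik3 and 0.38 for Neto2, CA1 minus DG was -1.32 for Grik4, -1.24 for Neto1, 0.78 for Grik1, -0.61 for Grik2 and 0.79 for Neto2, and CA3 minus DG was 0.73 for Grik1, -0.46 for Grik2, 0.42 for Neto2, -0.43 for Grik3, -0.22 for Grik4 and 0.10 for Neto1, the last 3 not called. Changes are differences of log2(normalised count + 1), which understate the change of low genes. Levels are compared between subfields for 1 gene at a time, since transcript lengths were not given.

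**Figure D1:**
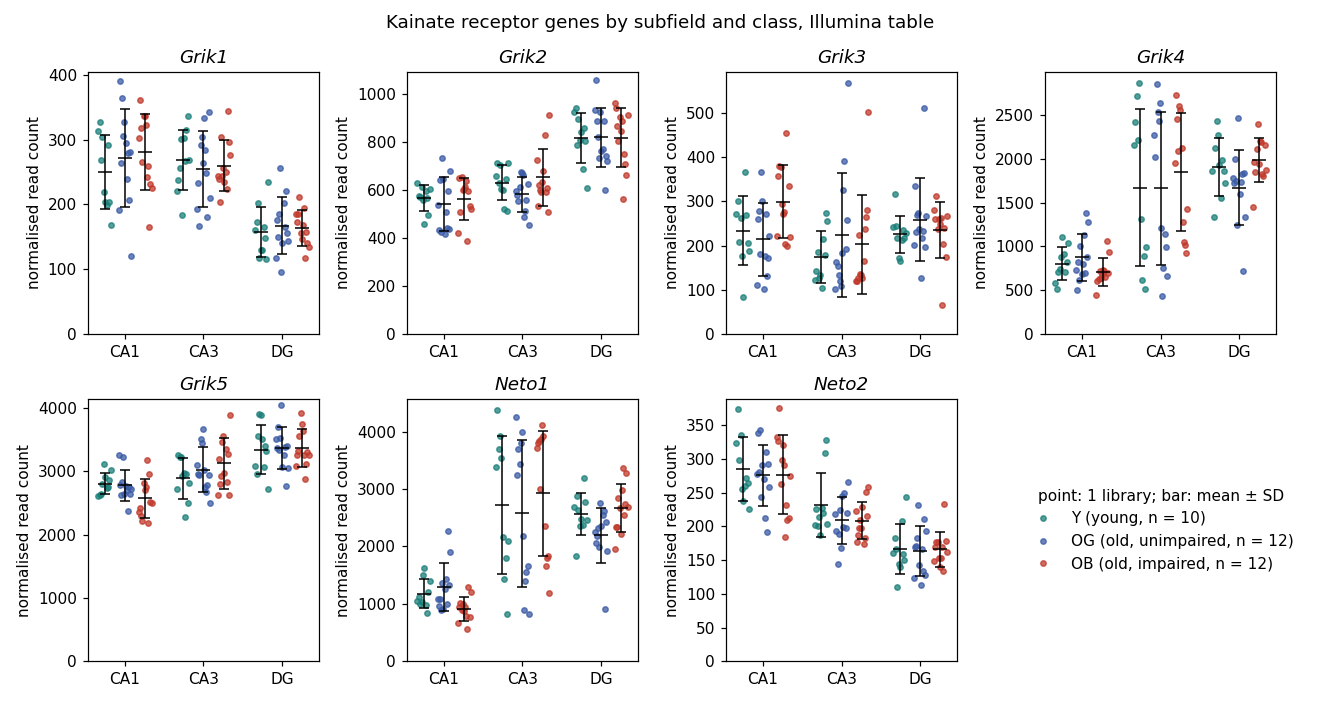
Normalised read counts (y axis, linear, from 0) of the 7 genes by subfield (x axis) and class in the Illumina table, with 1 point per library and bars for the mean ± SD (Y n = 10, OG n = 12, OB n = 12). Grik4 and Neto1 sit low in CA1 and fall into a high and a low set of libraries in CA3, from 439.5 to 2867 and from 822 to 4375, while the classes overlap in every panel.

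Among the primary subunits, Grik1 ran from 121 to 389.8 with a median of 274 in CA1, from 167 to 344 with a median of 256 in CA3, and from 95.3 to 257 with a median of 159 in DG. Between CA1 (mean 268.5 ± 63.7, SD, n = 34) and CA3 (260.5 ± 47.8) the log2 difference over all rats was 0.02, with a 95% interval of -0.13 to 0.18. It was 0.33 below 9000 and -0.32 from 9000 up, so the pooled value joins opposite directions. DG stood below both. Grik1 was higher in CA1 than in DG by 0.70 (SE 0.0778, limma adjusted p = 5.68e-13, Ion Proton 0.59) and in CA3 by 0.68 (adjusted p = 1.85e-12, Ion Proton 0.63). Within rats it was higher in CA1 than in DG in 31 of 34 and in CA3 than in DG in 33 of 34. Summed interneuron markers moved with it, since the sum of 11 markers had a median of 10580 (7434 to 13110) for CA1, of 10400 (5031 to 12070) for CA3 and of 8067 (4716 to 11450) for DG, with Npy under a mean of 10. Lists of other cells also stood lowest in DG, with medians for CA1, CA3 and DG of 130600, 158000 and 77540 for oligodendrocyte markers, 5537, 6022 and 3916 for oligodendrocyte precursor markers, 4592, 4574 and 3819 for microglia markers, 267.9, 272.3 and 161.2 for choroid plexus markers, and 569.0, 567.1 and 468.4 for thalamus and habenula markers. Astrocyte markers gave 73510, 67500 and 67800. Of the neuronal lists, CA1 pyramidal markers gave 12240, 4861 and 2540, CA2 markers 3308, 3151 and 2623, and subiculum markers 2167, 1404 and 1392, lowest in DG too. CA3 pyramidal markers gave 4750, 11860 and 7216, and dentate granule markers 4429, 2558 and 7553. The part of these lists in the difference was not tested.

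Grik2, the subunit found in most kainate receptors of principal cells, ran from 388 to 732 with a median of 573 in CA1, from 452 to 913 with a median of 609 in CA3, and from 560.5 to 1057 with a median of 829 in DG. DG was highest. It was lower in CA1 than in DG by a log2 difference of -0.56 (SE 0.0529, limma adjusted p = 4.86e-16, Ion Proton -0.60) and in CA3 than in DG by -0.40 (adjusted p = 4.33e-10, Ion Proton -0.40), in 33 and in 31 of 34 rats. CA1 and CA3 differed by -0.16 with an adjusted p of 0.0102 in the Illumina table and by -0.20 with an adjusted p of 0.133 in the Ion Proton table, so Grik2 was not called there.

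Grik3, a primary subunit with low sensitivity to glutamate, ran from 83.6 to 454 with a median of 261 in CA1, from 102.4 to 567 with a median of 164 in CA3, and from 66.6 to 510.2 with a median of 238 in DG. The subfields overlapped widely. Grik3 was called between CA1 and CA3 alone, with a log2 difference of 0.36 (SE 0.133, limma adjusted p = 0.0247, Ion Proton 0.49), and was higher in CA1 in 23 of 34 rats. Against DG, CA3 gave -0.34 in the Illumina and -0.27 in the Ion Proton table (adjusted p = 0.126), and CA1 gave 0.02 with an interval of -0.24 to 0.29.

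Of the high-affinity subunits, Grik4 ran from 450.1 to 1376 with a median of 724 in CA1, from 439.5 to 2867 with a median of 1985 in CA3, and from 723 to 2468 with a median of 1850 in DG. CA1 (796 ± 217, SD, n = 34) stood below CA3 (1729 ± 797) and DG (1847 ± 361), and CA3 had by far the widest spread of the 3, with a coefficient of variation of 46.1%. The log2 difference was -0.98 between CA1 and CA3 (SE 0.130, limma adjusted p = 1.04e-09, Ion Proton -0.94) and -1.23 between CA1 and DG (adjusted p = 7.33e-14, Ion Proton -1.11). Grik4 was lower in CA1 than in DG in 33 of 34 rats and than in CA3 in 27 of 34. By the numbers of the rats, the difference between CA1 and CA3 was -1.85 below 9000 and -0.00 from 9000 up (limma adjusted p = 0.992). Between CA3 and DG it was not called over all rats (-0.25, interval -0.51 to 0.01).

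Grik5 ran from 2188 to 3250 with a median of 2724 in CA1, from 2276 to 3885 with a median of 2959 in CA3, and from 2728 to 4046 with a median of 3330 in DG. The 3 subfields passed the adjusted threshold against each other in the Illumina table, beside 35.4%, 55.6% and 55.6% of all genes, with log2 differences of -0.15 for CA1 minus CA3, -0.31 for CA1 minus DG and -0.16 for CA3 minus DG. In the Ion Proton table the same differences were -0.04, -0.08 and -0.04 and none passed, so Grik5 was called nowhere. Its values followed each other least between tables, with r = 0.40 between Illumina and Ion Proton and 0.37 between Illumina and WT over all libraries of a table, where the other members reached 0.68 to 0.96 and 0.80 to 0.98. The mean WT value of Grik5 was 0.198 times the Illumina mean, the lowest such ratio of the 7. Points of these correlations are libraries of the same RNA.

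Of the auxiliary genes, Neto1 ran from 570.2 to 2277 with a median of 1026 in CA1, from 822 to 4375 with a median of 3123 in CA3, and from 910.5 to 3372 with a median of 2473 in DG. Neto1 was lower in CA1 than in CA3 by a log2 difference of -1.18 (SE 0.125, limma adjusted p = 3.71e-13, Ion Proton -1.13) and than in DG by -1.16 (adjusted p = 1.58e-13, Ion Proton -1.12). Within rats it was lower in CA1 than in DG in 33 of 34 and than in CA3 in 29 of 34. CA3 and DG differed by 0.02 (interval -0.23 to 0.27) over all rats, with a coefficient of variation of 42.4% in CA3.

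Neto2 went the other way. It ran from 184 to 375 with a median of 276 in CA1, from 144 to 327 with a median of 212 in CA3, and from 109.9 to 244 with a median of 164 in DG, and neighbouring subfields overlapped. It was called in all 3 comparisons, with log2 differences of 0.37 between CA1 and CA3 (SE 0.0622, limma adjusted p = 9.79e-07, Ion Proton 0.45), 0.75 between CA1 and DG (adjusted p = 7.35e-19, Ion Proton 0.86) and 0.39 between CA3 and DG (adjusted p = 9.96e-08, Ion Proton 0.41). Of 34 rats, 28, 31 and 30 had the same direction. Median sums of CA1 pyramidal, CA2, subiculum, interneuron, microglia, and thalamus and habenula markers also fell from CA1 through CA3 to DG. The other lists given beside Grik1 did not. The part of these lists in the values of Neto2 was not tested.

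**Figure D2:**
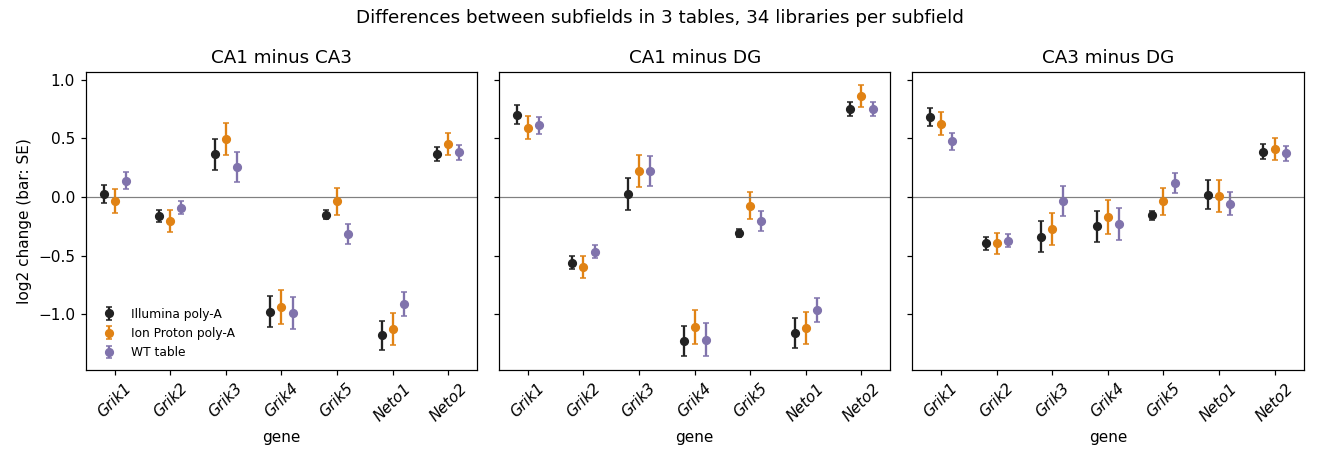
Log2 differences (y axis) between subfields for the 7 genes (x axis) in the Illumina, Ion Proton and WT tables, with bars for the SE from limma and 34 libraries per subfield. Neto1 and Grik4 lie near -1 for CA1 against either subfield, at -1.18 and -0.98 against CA3, Neto2 lies above 0 in all panels, and Grik5 lies at -0.31 in the Illumina and -0.08 in the Ion Proton table for CA1 minus DG.

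The wide spread of Grik4 and Neto1 in CA3 followed the number series of the rats. Neto1 in CA3 ran from 2999 to 4375 with a median of 3802 in the 18 rats below 9000 (3754 ± 344, SD) and from 822 to 2358 with a median of 1655 in the 16 rats from 9000 up (1605 ± 488). Grik4 in CA3 ran from 1948 to 2867 with a median of 2435 below 9000 (2421 ± 286) and from 439.5 to 1431 with a median of 997 from 9000 up (952 ± 292). In neither gene did the series overlap, in the Illumina or in the Ion Proton table, and Grik4 did not overlap in the WT table either, whereas Neto1 did there. Grik3 went the other way, from 102.4 to 224 with a median of 129.8 below 9000 and from 105 to 567 with a median of 257 from 9000 up, and overlapped.

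The contrast of the series, from 9000 up minus below 9000, called 3 of 7 genes in CA3, where 22.9% of all genes were called. In CA3 the log2 difference was -1.41 for Grik4 (SE 0.113, limma adjusted p = 1.73e-19, Ion Proton -1.51), -1.29 for Neto1 (SE 0.122, adjusted p = 4.4e-16, Ion Proton -1.37) and 0.90 for Grik3 (SE 0.163, adjusted p = 1.74e-06, Ion Proton 0.72). In CA1 it called 2 of 7 beside a background of 9.11%, Grik1 with -0.45 and Neto2 with -0.34 (-0.40 and -0.35 without the libraries whose markers lay nearest to another subfield). In DG it called 1 of 7 beside a background of 6.79%, Grik5 with -0.15, which was lost without the libraries whose markers lay nearest to another subfield (-0.13, Ion Proton adjusted p = 0.0622). Without those libraries the CA3 differences were -1.49 for Grik4, -1.25 for Neto1 and 0.90 for Grik3, and without the 7 most deeply sequenced rats, which lie in both series, they were -1.56, -1.40 and 1.03. With the former libraries out, Grik4 reached at most 1312 in the 11 remaining CA3 libraries from 9000 up, and both Grik4 and Neto1 still lay below every CA3 library of the other series.

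**Figure D3:**
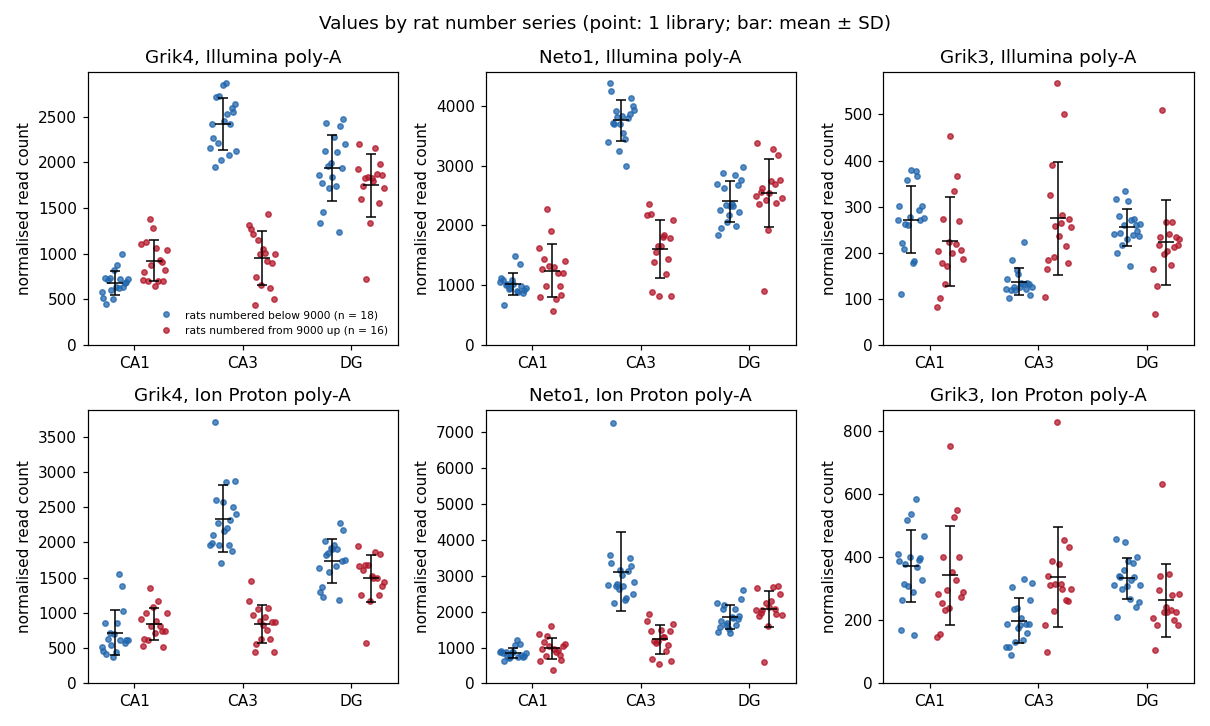
Normalised read counts (y axis, linear, from 0) by subfield (x axis) for rats numbered below 9000 (n = 18) and from 9000 up (n = 16), with 1 point per library and bars for the mean ± SD, in the tables named above the panels. In CA3 the series do not overlap for Neto1, 2999 to 4375 against 822 to 2358 in the Illumina table, nor for Grik4, whereas in CA1 and DG they overlap.

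The order of CA3 and DG therefore differed between the series. Below 9000, Neto1 was higher in CA3 than in DG by 0.65 (limma adjusted p = 7.24e-13, Ion Proton 0.71) and in 18 of 18 rats, and from 9000 up it was lower by -0.69 (adjusted p = 0.000823, Ion Proton -0.78) and higher in 1 of 16 rats. Grik4 gave 0.34 (adjusted p = 0.00029, Ion Proton 0.42) and 15 of 18 rats below 9000, and -0.91 (adjusted p = 1.89e-06, Ion Proton -0.84) and 1 of 16 rats from 9000 up. Grik3 was lower in CA3 than in DG by -0.90 (adjusted p = 1.14e-10) below 9000, in 18 of 18 rats, and stood at 0.29 (adjusted p = 0.279) from 9000 up, where it was higher in CA3 in 13 of 16 rats. Tested as a difference between the series, the CA3 minus DG value moved by -1.34 for Neto1, -1.25 for Grik4 and 1.18 for Grik3, which were 3 of 7 genes called beside a background of 17.2%. Without the libraries whose markers lay nearest to another subfield these values were -1.38, -1.39 and 1.18.

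Between CA1 and CA3 the same test called 5 of 7 genes, beside a background of 13.9%. The log2 difference of Grik4 between CA1 and CA3 was -1.85 below 9000 and -0.00 from 9000 up, that of Neto1 -1.89 and -0.38, that of Grik3 0.94 and -0.29, that of Grik1 0.33 and -0.32, and that of Neto2 0.63 and 0.07. The CA1 and CA3 libraries whose markers lay nearest to another subfield were all from 9000 up. In that series Neto1 was higher in CA1 in 5 of 16 rats, and in 1 of 10 without them. Grik4 was higher in CA1 in 7 of 16 and then 4 of 10, Grik3 in 5 and then 3, and Neto2 in 10 and then 7. Grik1 passed the adjusted threshold in both tables in each series with opposite directions, and was higher in CA1 than in CA3 in 16 of 18 rats below 9000 and in 3 of 16 from 9000 up. Between CA1 and DG the test called 0 of 7, beside a background of 0.108%, while at an unadjusted p under 0.05 limma and edgeR each gave 4 of 7 in the Illumina table, where 14.8% of all genes passed. At an adjusted p under 0.05 each gave 2 of 7 in the Illumina table, where 0.839% of all genes passed with limma, and limma gave 0 of 7 in the Ion Proton table. CA1 minus DG kept its direction within both series for Grik1, Grik2, Grik4, Neto1 and Neto2. The values were 0.90 and 0.49 for Grik1, -0.62 and -0.49 for Grik2, -1.51 and -0.92 for Grik4, -1.24 and -1.06 for Neto1, and 0.94 and 0.54 for Neto2.

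Marker genes moved with this split. In CA3 libraries, 6 CA1 pyramidal markers summed to a median of 3259 (983.5 to 7004) below 9000 and 6663 (2746 to 10340) from 9000 up, with Fibcd1 under a mean of 10. The 8 CA3 pyramidal markers summed to 12200 (7763 to 18740) and 11530 (3252 to 17930), with Iyd under a mean of 10, and the 9 dentate granule markers to 2229 (1976 to 3316) and 2680 (1999 to 11110), with Lct and Tdo2 under a mean of 10. The 4 subiculum markers gave medians of 1220 and 2383, the 5 CA2 markers 3748 and 2512, the 8 astrocyte markers 64020 and 82410, and the 8 oligodendrocyte markers 164900 and 116400. The 11 interneuron markers gave 10400 and 10540, the 6 oligodendrocyte precursor markers 6054 and 6007, the 7 microglia markers 4132 and 4816, the 6 choroid plexus markers 185.3 and 474.1, and the 6 thalamus and habenula markers 509.3 and 730.0. Site, colony, dissection and number series cannot be told apart with these labels, and the part of these markers in the values of Grik4, Neto1 and Grik3 was not tested.

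In CA1, where Grik1 and Neto2 were lower from 9000 up, the interneuron markers summed to a median of 11400 (9734 to 13110) below 9000 and 9122 (7434 to 10990) from 9000 up. The oligodendrocyte markers gave 111500 (76320 to 154000) and 191000 (108000 to 298300), and the astrocyte markers 65560 (57860 to 77470) and 85250 (71860 to 101200). In DG, where Grik5 was lower from 9000 up, the oligodendrocyte markers gave 56980 (46120 to 82330) and 122400 (69100 to 223800), the astrocyte markers 61920 (49260 to 68670) and 73430 (62430 to 79090), and the interneuron markers 8198 and 7954. Choroid plexus markers, with Otx2 under a mean of 10, gave 71.8 (10.91 to 11560) and 619.6 (90.51 to 151800) for CA1, and 22.83 (10.3 to 954.4) and 350.8 (64.8 to 3821) for DG. Oligodendrocyte precursor markers gave 4972 and 6526 for CA1 and 3565 and 5006 for DG, microglia markers 4446 and 5123 and then 3581 and 4248, and thalamus and habenula markers, with Gbx2 under a mean of 10, 528.8 and 661.7 and then 401.7 and 501.0. The neuronal lists gave, in the same order, 12440 and 11410, then 2506 and 2653 for CA1 pyramidal, 4948 and 4614, then 7298 and 7062 for CA3 pyramidal, 4499 and 3995, then 7711 and 7376 for dentate granule, 3208 and 3696, then 2561 and 3100 for CA2, and 2100 and 2365, then 1235 and 1586 for subiculum markers. The part of these markers in the values of Grik1, Neto2 and Grik5 was not tested.

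With age, none of the 7 genes was called. Aged minus young log2 differences of the members lay within -0.13 and 0.13 for CA1, within -0.14 and 0.19 for CA3 and within -0.10 and 0.08 for DG. In each subfield limma gave 0 of 7 genes at an adjusted p under 0.05, beside 0.338% of all genes in CA1, 0% in CA3 and 0.3% in DG. It also gave 0 of 7 by retest, that is an unadjusted p under 0.01 in the Illumina and a one-sided p under 0.05 the same way in the Ion Proton table, beside 0.832%, 0.393% and 1.07%. At an unadjusted p under 0.05 there were 0 members in any subfield with limma, edgeR or DESeq2, where limma passed 6.15%, 3.31% and 5.2% of all genes. The widest interval was that of Grik4 in CA3, from -0.45 to 0.72, where both number series were pooled, and that of Grik5 in CA1 ran from -0.18 to 0.03.

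OG minus Y and OB minus Y share the young libraries and are given side by side. Neither called a member in any subfield by adjusted p, beside 0.169% and 0.12% for CA1, 0% and 0% for CA3, and 0.107% and 0.228% for DG, or by retest, beside 0.655% and 0.81%, 0.281% and 0.344%, and 0.649% and 0.97%. In CA1, Neto1 gave 0.11 for OG minus Y and -0.36 for OB minus Y (limma unadjusted p = 0.0174, adjusted p = 0.49, Ion Proton -0.32), and Grik3 gave -0.13 and 0.40. Grik5 in CA1 gave -0.02 and -0.13 (unadjusted p = 0.0272, adjusted p = 0.57). Neto1 in DG gave -0.26 (unadjusted p = 0.0469) and 0.05. With limma in the Illumina table, an unadjusted p under 0.05 was reached only by Neto1 and Grik5 in CA1 and Neto1 in DG. Grik3 in CA1 did not reach it. Of all genes, 4.86% and 7.81% did so for CA1, 2.89% and 3.07% for CA3, and 4.7% and 5.05% for DG. Both edgeR and DESeq2 gave the same pair in CA1 and no member in DG.

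Between OB and OG, Neto1 in CA1 was 1 of 7 genes called by retest, beside 0.62% of all genes, and 0.246% of all genes were called in the lower direction. By adjusted p limma called 0 of 7 beside 0%, with Grik3 and Neto1 at an unadjusted p under 0.05 beside 5.71%, and edgeR and DESeq2 called 0 by adjusted p and 3 at an unadjusted p, with Grik4 added. Neto1 in CA1 ran from 570.2 to 1302 with a median of 914.5 in OB (916 ± 207, SD, n = 12), from 902 to 2277 with a median of 1181 in OG (1294 ± 420.4, n = 12) and from 838 to 1629 with a median of 1085 in Y (1175 ± 254, n = 10). The classes overlapped, with 10 of 12 OB libraries below the OG median and 6 below the lowest OG library (12 and 5 in the Ion Proton table). The OB minus OG log2 difference was -0.47 (SE 0.144, limma p = 0.00298, adjusted p = 0.562), with -0.44 in the Ion Proton (p = 0.0047) and -0.31 in the WT table. Ion Proton libraries came from the same rats, so the retest bears on technical error. Neto1 stands in a list of CA1 cognition genes that the study chose on these samples, so its direction here is not independent evidence.

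The Neto1 difference was also taken within each number series. It was -0.21 below 9000 (limma p = 0.0593), where OG stood at 1054 ± 172 and OB at 906 ± 117, and -0.73 from 9000 up (limma p = 0.00993), where OG stood at 1534 ± 469.8 and OB at 929.5 ± 311. Whether these differ was not tested. The OG library labelled CA1 whose markers lay nearest to DG held 1902, and without it the difference was -0.42 (limma p = 0.00634). Without the 7 most deeply sequenced rats it was -0.43 with a p of 0.0161 and no longer passed. CA1 pyramidal markers summed to a median of 12000 in OB (7584 to 13200) and 14290 in OG (2444 to 23380), CA3 pyramidal markers to 4864 and 4504, and dentate granule markers to 4545 and 4113, and with the CA3 and DG marker scores as covariates Neto1 gave -0.42 (limma p = 0.00228). CA2 pyramidal markers, with Map3k15 under a mean of 10, were lowest in OB as Neto1 was, with 3001 in OB (1978 to 5055), 3457 in OG (2808 to 5079) and 3714 in Y (2543 to 5283). The other lists gave, for OB and OG, 2334 and 2077 for subiculum, 10710 and 10300 for interneuron, 74380 and 75520 for astrocyte, 130800 and 145200 for oligodendrocyte, 5415 and 5602 for oligodendrocyte precursor, 4721 and 5030 for microglia, 276.7 and 222.0 for choroid plexus, and 612.2 and 558.1 for thalamus and habenula markers. The part of the CA2 and these other markers was not tested.

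Grik3 in CA1 leaned the other way. It ran from 199 to 454 with a median of 285 in OB (299 ± 82.2, n = 12), from 103 to 367 with a median of 202 in OG (215 ± 82.4, n = 12) and from 83.6 to 366 with a median of 236 in Y. Of 12 OB libraries, 11 lay above the OG median in either poly-A table. The log2 difference was 0.53 (SE 0.190, limma p = 0.0101, adjusted p = 0.667, Ion Proton 0.71, p = 0.00067), just outside the threshold of the retest. Grik4 in CA1 gave -0.28 (p = 0.0601, Ion Proton -0.35), with 10 of 12 OB libraries below the OG median.

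**Figure D4:**
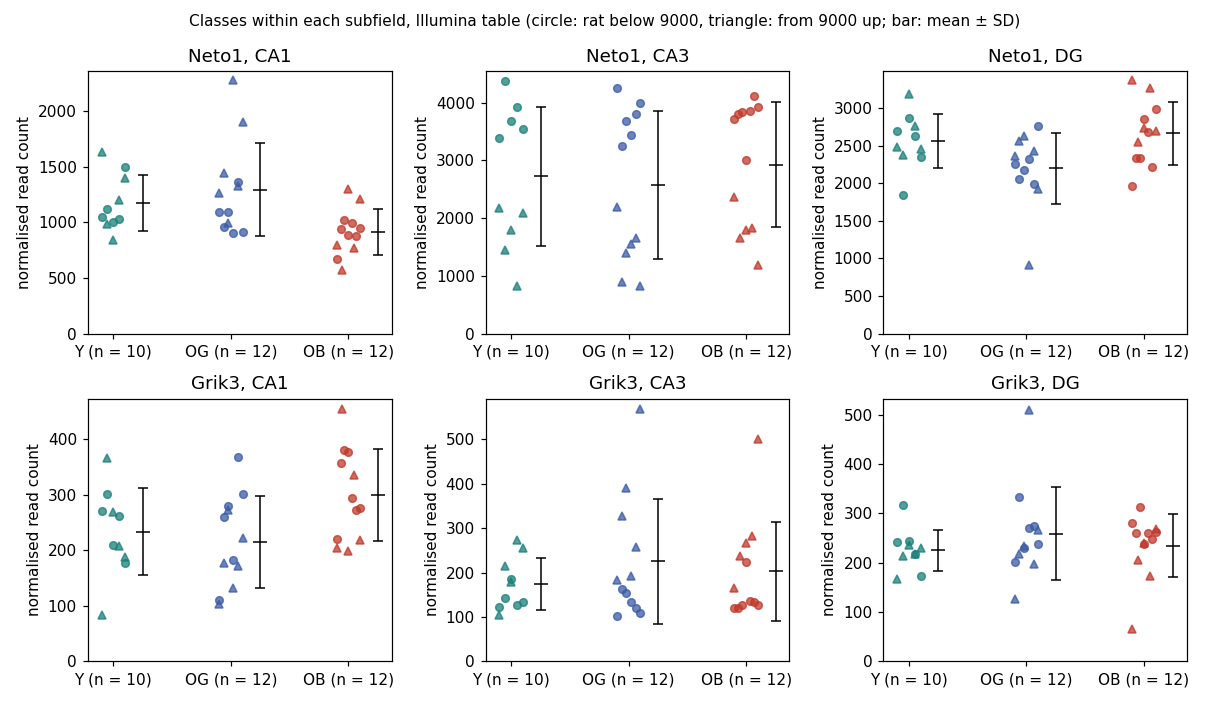
Normalised read counts (y axis, linear, from 0) of Neto1 and Grik3 by class (x axis; Y n = 10, OG n = 12, OB n = 12) within CA1, CA3 and DG, Illumina table, with circles for rats below 9000, triangles for rats from 9000 up and bars for the mean ± SD. In CA1 the OB libraries of Neto1 lie at 570.2 to 1302 and overlap OG and Y, and in CA3 the spread within a class follows the number series.

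In CA3 and DG none of the 7 genes was called between OB and OG, by retest beside 0.0211% and 0.121% of all genes or by adjusted p beside 0% and 0% with limma. At an unadjusted p under 0.05 there were 0 members in CA3 and 2 in DG with limma, edgeR and DESeq2, beside 1.4% and 3.85% of all genes with limma. These were Neto1, with 0.31 (p = 0.0236, Ion Proton 0.29), and Grik4, with 0.29 (p = 0.0328, Ion Proton 0.26), both toward higher values in OB. Neto1 in DG ran from 1963 to 3372 with a median of 2684 in OB and from 910.5 to 2754 with a median of 2288 in OG. Without the 4 DG libraries whose markers lay nearest to another subfield, 3 of them OG, Neto1 gave 0.11 and Grik4 0.08. In CA3 all members lay between -0.09 and 0.28 with all libraries kept. Of those, 3 OB and 1 OG had markers nearest to another subfield, and the range without them is not given here.

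Whether an effect differed between subfields was tested as an interaction, and limma called 0 of 7 genes by adjusted p for age and for cognition in each pair of subfields, beside 0% of all genes, as did edgeR. Unadjusted, the OB minus OG difference of Neto1 was lower in CA1 than in CA3 by -0.75 (p = 0.0112) and than in DG by -0.78 (p = 0.00862), with -0.90 and -0.73 in the Ion Proton table, and that of Grik3 was higher in CA1 than in DG by 0.67 (p = 0.0349, Ion Proton 0.78). The age difference of Grik5 was lower in CA1 than in CA3 by -0.16 (p = 0.0447, Ion Proton -0.01). These were the members at an unadjusted p under 0.05 in the Illumina table with limma, and edgeR gave 0 for age, Grik3 and Neto1 for cognition between CA1 and CA3, and Neto1 between CA1 and DG. Without the libraries whose markers lay nearest to another subfield, Neto1 gave -0.88 for CA1 against CA3 (limma p = 0.00157) and -0.53 for CA1 against DG (p = 0.0531), Grik3 gave 0.83 for CA1 against CA3 (p = 0.00748) and 0.38 for CA1 against DG (p = 0.208), Grik4 gave -0.64 for CA1 against CA3 (p = 0.041, Ion Proton -0.82, p = 0.0196), and Grik5 gave -0.13 for age (p = 0.117). Of all genes, 5.22%, 3.74% and 2.36% passed that unadjusted limma threshold for cognition and 1.89%, 0.353% and 1.03% for age, the pairs of subfields being CA1 with CA3, CA1 with DG, and CA3 with DG in turn.

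Proteins that bind, place or modify kainate receptors were followed as a list of 23 genes, all tested. Between CA1 and CA3, 5 were higher and 3 lower in CA1, beside 7.26% and 7.09% of all genes, with a median log2 difference of -0.02 against 0.01 over all genes. C1ql2 (1.75) and C1ql3 (1.38), secreted proteins of mossy fibres that bind kainate receptors, and Ppp3ca (0.54), a calcineurin catalytic subunit, were higher, and Prkca (-0.72), protein kinase C alpha, was lower. The 9 dentate granule markers, with Lct and Tdo2 under a mean of 10, also summed higher in CA1, to a median of 4429 (1958 to 7400), than in CA3, to 2558 (1976 to 11110), with 7553 (1975 to 10240) in DG, and their part in the values of C1ql2 and C1ql3 was not tested. Within the number series, CA1 minus CA3 was 2.73 below 9000 and 0.64 from 9000 up for C1ql2, 2.47 and 0.15 for C1ql3, -1.42 and 0.06 for Prkca, and 0.38 and 0.73 for Ppp3ca. The difference between the series was called for C1ql2, C1ql3 and Prkca (limma adjusted p = 0.000476, 3.34e-12 and 9.84e-14) and not for Ppp3ca (0.0645), and from 9000 up none of the first 3 passed an adjusted p under 0.05 in either poly-A table. Between CA1 and DG, 2 were higher and 7 lower, beside 13.4% and 13.5%, with a median of -0.16 against 0.00. The largest were C1ql2 (-1.36), Grip2 (0.83), a PDZ scaffold, Adarb1 (-0.38), the enzyme that edits receptor transcripts, and Snap25 (-0.29), a vesicle fusion protein. Below 9000 and from 9000 up, Adarb1 gave -0.56 and -0.19, and the series difference was not called (limma adjusted p = 0.0554). Between CA3 and DG, 2 were higher and 7 lower, beside 14.1% and 14.3%, with a median of -0.10 against 0.01, led by C1ql2 (-3.11), C1ql3 (-1.66), Grip2 (0.86) and Ppp3ca (-0.60). Below 9000 and from 9000 up, CA3 minus DG was -4.14 and -1.95 for C1ql2, -2.73 and -0.45 for C1ql3, 1.21 and 0.47 for Grip2, and -0.41 and -0.81 for Ppp3ca. Prkca, at 0.40 over all rats, stood at 1.09 and -0.38, with an adjusted p under 0.05 in both poly-A tables in each series. The series difference was called for C1ql2, C1ql3, Grip2 and Prkca (limma adjusted p = 0.000205, 3.24e-12, 8.84e-05 and 6.16e-14) and not for Ppp3ca (0.0281 in the Illumina table alone). Without the libraries whose markers lay nearest to another subfield, C1ql2 gave 1.99 and C1ql3 1.65 for CA1 minus CA3, and -3.51 and -1.98 for CA3 minus DG.

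For the number series in CA3, 3 of the 23 partners were higher and 5 lower from 9000 up, beside 10.9% and 12% of all genes, with a median of -0.08 against 0.01. C1ql3 (1.55) and C1ql2 (1.38) were higher and Prkca (-1.13) and Ppp3cb (-0.46), another calcineurin subunit, were lower, in the same libraries in which Grik4 and Neto1 were low. The CA3 libraries from 9000 up include all 5 CA3 libraries whose markers lay nearest to another subfield, and dentate granule markers summed to 1999 to 11110 there and to 1976 to 3316 below 9000. Without those libraries C1ql3 gave 1.31, C1ql2 1.07, Prkca -1.14 and Ppp3cb -0.48, and the part of the granule markers was not tested. By retest, 1 partner was called for age, Adarb1 in CA3 with 0.23 (limma p = 0.00411), which was lost without those libraries (0.20, limma p = 0.0194) and stood at 0.07 below 9000 and 0.39 from 9000 up, and 1 for OB minus OG, Prkca in CA1 with -0.46 (limma p = 0.00387, and -0.33 below 9000 and -0.54 from 9000 up), beside 0.337% of all genes in the higher and 0.246% in the lower direction. Prkca too stands in the study's CA1 cognition list. Limma called 0 partners by adjusted p in any age or cognition comparison within a subfield.

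The 13 other ionotropic glutamate receptor subunits served as a set beside the kainate receptors, and all were tested. Between CA1 and CA3, 3 were higher and 0 lower in CA1, beside 7.26% and 7.09% of all genes, with a median of 0.12, namely the AMPA receptor gene Gria3 (0.40) and the NMDA receptor genes Grin2a (0.31) and Grin2c (0.26). Between CA1 and DG, 3 were higher and 0 lower, beside 13.4% and 13.5%, with a median of -0.09, namely Grin3a (1.12), Grin2c (0.22) and Grin2d (0.19). Between CA3 and DG, 3 were higher and 6 lower, beside 14.1% and 14.3%, with a median of -0.15, led by Grin3a (1.05), Grin3b (-0.61), Grin2a (-0.44) and Grin2d (0.39). The series difference was called for Gria3 between CA1 and CA3 (0.58 below 9000 and 0.19 from 9000 up) and for Grin3b between CA3 and DG (-1.03 and -0.13), with limma adjusted p of 0.000127 and 2.75e-07. It was also called for 2 genes not called there over all rats. These were Grin3a between CA1 and CA3 (-1.39, limma adjusted p = 1.75e-06) and Grid1 between CA3 and DG (-0.21, limma adjusted p = 0.00302). The calls of Gria3 and Grin3b were lost without the libraries whose markers lay nearest to another subfield, where the series difference was -0.34 for Gria3 and 0.69 for Grin3b (Ion Proton adjusted p = 0.11 and 0.102 with limma). Those of Grin3a (-1.575) and Grid1 (-0.23) stayed. The series difference was not called for Grin3a between CA1 and DG, which gave 1.63 and 0.53 (adjusted p = 0.0169 in the Illumina table alone). For the number series in CA3, beside 10.9% and 12%, 1 was higher, Grin3b (0.62), which was lost without the libraries whose markers lay nearest to another subfield (0.49, Ion Proton adjusted p = 0.0581 with limma), and 4 were lower, led by Gria1 (-0.52), Grin2a (-0.46) and Grin1 (-0.37). By either call rule, 0 of 13 were called for age or cognition within a subfield, beside the shares given above for the kainate receptor genes.

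Members were also compared with every tested gene by the Pearson correlation of log2 values over all Illumina libraries, among 14179 genes. The first value in each pair is that of the Illumina table and the other that of the Ion Proton table. The libraries share rats, subfields and the number series, so these are descriptions. Neto1 was the gene second most like Grik4 (r = 0.940 and 0.885), after Cpne4 (0.954 and 0.826) and before Tuba8 (0.930 and 0.814). Neto1 was itself most like Lsm11 (0.967 and 0.874), Mpp3 (0.954 and 0.703) and Kcnq5 (0.952 and 0.859). For Grik1 the leading genes were Etv1 (0.880 and 0.768), Cxxc4 (0.870 and 0.683) and Mst1r (0.869 and 0.611), and for Neto2 Slc35f1 (0.892 and 0.772), Cpne8 (0.867 and 0.781) and Ptprn2 (0.863 and 0.647). For Grik2 they were Mpdz (0.906 and 0.809) and Unc5d (0.876 and 0.669), for Grik3 Tshz3 (0.833 and 0.803), Dock3 (0.833 and 0.614) and Magi1 (0.823 and 0.714), and for Grik5 Mink1 (0.866 and 0.692), Ptprs (0.844 and 0.635) and Igdcc3 (0.834 and 0.666).

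Within the family, Grik4 and Neto1 rose and fell together in every subfield, with r = 0.80 in CA1, 0.94 in CA3 and 0.86 in DG over 34 libraries each, and 0.60, 0.91 and 0.65 in the Ion Proton table. Grik3 ran against Neto1, with r = -0.57, -0.85 and -0.61, and -0.61, -0.76 and -0.61 in the Ion Proton table. Grik1 ran against Grik4 with r = -0.75, -0.38 and -0.45, but in the Ion Proton table with -0.38, -0.32 and -0.29. All these values include the 10 libraries whose markers lay nearest to another subfield, 4 of them DG. The part of those libraries in r was not tested. In CA3 the libraries form the separate sets of the number series described above. In CA1 Grik1 (-0.45) and Grik4 (0.43, limma adjusted p = 0.00163 in the Illumina table, not called with Ion Proton) differed between the series in opposite directions, so the values of both subfields carry that split.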

How the data were processed

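RNA of CA1, CA3 and DG from 34 rats was analysed in 3 tables, each with 34 libraries per subfield. The deposited values were a normalised signal, that is, read counts per gene that the authors had divided by a size factor for each library, and per the labels' processing notes rn5 served as genome and STAR 2.5, featureCounts 1.4.4 and DESeq2 1.16.1 were among the tools. For the WT table the library type, aligner and counter are not given in the sources used here, nor is the strand setting of the counting. Each library's values were whole multiples of what 1 read is worth (100.0% of values above 0, tolerance 0.001 reads), and the recovered reads gave the depths. All table columns were tied to a sample, with 0 left over.

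Genes with a mean of at least 10 were tested with limma 3.58.1 (R 4.3.3, trended empirical Bayes, two-sided) on log2(value + 1), with Benjamini-Hochberg adjustment over all genes and 95% intervals from its t distribution. Subfields were compared over all libraries of a table, and age (aged minus Y) and cognition (OB minus OG) within each subfield. Replicates are different rats. Counts recovered from the values went into edgeR 4.0.16 and DESeq2 1.42.0 as alternatives, and the scripts were tested on simulated data. Since the same rat gave its 3 subfields, rats pair the subfield libraries, and deviations from group means correlated with a median r of 0.10 in same-rat pairs (-0.41 to 0.64) and -0.00 between different rats.

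The kainate receptor genes, the partner list, the list of other glutamate receptor subunits and the marker lists were chosen with earlier results of these data known. Genes outside the 7 were named by rule, as the up to 4 called list members with the largest change in a comparison and the 3 genes most like each kainate receptor gene, of which 1 is not reported here. The contrast of the number series, its variants, the marker-score covariates and further settings for the interactions were chosen after seeing the data. Intervals of shares and floors are not used.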

Additional observations from a re-analysis of the deposited data

Results flagged for a closer look

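In the Illumina table, Grik3 in 1 of the 10 young DG libraries stood at 316, above the next library at 243.8 and the median of 223.4, with a gap of 0.482 of the range of the group. It was the outlying library in 1 of 42 groups of 10 tested, where chance gives about 1 in 20.

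The difference between CA1 and CA3 changed between rats from 9000 up and rats below 9000, tested as an interaction with limma and adjusted over all genes in the Illumina table. The change was 1.84 for Grik4 (adjusted p = 7.65e-17), 1.52 for Neto1 (adjusted p = 5.9e-12), -1.23 for Grik3 (adjusted p = 6.46e-06), -0.65 for Grik1 (adjusted p = 8.91e-05) and -0.56 for Neto2 (adjusted p = 1.95e-05) on the log2 scale. The difference between CA3 and DG changed by -1.34 for Neto1 (adjusted p = 2.56e-10), -1.25 for Grik4 (adjusted p = 2.01e-10) and 1.18 for Grik3 (adjusted p = 1.08e-05). These 8 changes passed in both poly-A tables with 1 direction.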

How the results depend on the processing

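Of 39 counts of called kainate receptor genes, 399 alternative values stayed within 1.5 times the main count and 15 did not. Most of these counts were 0 in comparisons where few or no genes at all were called. A 0 that stayed 0 is among the 399, so that number says little about stability. Between CA1 and CA3 the count of 4 became 1 with rats from 9000 up, 2 with Y rats and 0 with OG rats, between CA1 and DG the count of 5 became 3 with OG rats, and between CA3 and DG the count of 3 became 6 with rats below 9000, 5 with rats from 9000 up, 0 with OG rats and 1 with OB rats, settings that hold fewer samples. For OB minus OG in CA1 the count of 1 became 2 with quantile normalisation, where Grik3 joined, and 0 with rats below 9000, without the 7 most deeply sequenced rats, and with WT in place of Illumina values. With WT in place of Illumina values the count also became 1 for OB minus OG in DG (Grik4) and 1 for the number series in CA1, and without libraries with markers of another subfield it became 0 for the series in DG. The cause was not tested. Of 32 single values, 297 alternatives kept direction and call, 24 lost and 4 gained a call, and 3 reversed, namely Grik3 between CA1 and CA3 from 9000 up (-0.29), Grik4 between CA3 and DG below 9000 (0.34) and Neto1 between CA3 and DG from 9000 up (-0.69). With the rat as replicate block the counts were 4, 5 and 3 for the subfields and 0 for the interactions, and the block changed no call. Leaving out a young CA3 library or a young CA1 library, 1 each, gave counts from 0 to 0 for age. Of 312 alternatives for age and cognition, 5 gave another count. The main counts there were 0 but for OB minus OG in CA1 by retest. The number of rats per class within a series limits these comparisons, since 5 to 7 stand on each side.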
